A study of Mus musculus with 27 samples.

Results

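Interferon-stimulated genes are genes that cells switch on when interferon or viral nucleic acid is sensed, and 39 of them were followed by gene symbol through 5 RNA-Seq tables of mouse erythroleukemia (MEL) cells, a leukaemic line held at an early erythroid stage. A symbol was found where its row carried that name, and no row joined 2 genes. Rows for 38 of the 39 symbols were present among 20602 different genes, 34 of them in all 5 tables. *Zbp1* had no row, *Cmpk2* had one only in the *Gfi1b* table, *Rsad2* had none in the *Gfi1b* table, and *Ifit2* and *Rtp4* had none in the *Kdm1a* and MEL induction tables. The rule used symbols and no measured value, but the genes were chosen with earlier results of these data known.

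The study asked how co-repressors that act with the LDB1 transcription factor complex control erythroid genes. Of its tables, 4 compare a knockdown (KD) with a control, and the fifth follows induced differentiation. In the *Cbfa2t3* table, 2 libraries labelled Eto2 WT were set against 2 libraries with hairpin sh2 and 2 with hairpin sh3 against *Cbfa2t3*, which encodes the co-repressor ETO2. In the *Irf2bp2* table, 2 libraries labelled Irf2bp2 WT were set against 2 with hairpin sh1 against *Irf2bp2*, a co-repressor that was first found as a partner of the interferon regulatory factor IRF2. The *Kdm1a* table holds 1 library labelled Lsd1 WT and 2 labelled Lsd1 KD, with a hairpin against the histone demethylase LSD1. These 13 libraries came from cells collected 72 h after lentiviral delivery of the hairpin, and by the study's methods the WT cells received a non-targeting hairpin, so that the controls also went through lentiviral delivery. The *Gfi1b* table holds 2 control libraries and 2 labelled Gfi1b KD from siRNA transfections against the repressor GFI1B, and the labels do not tell which siRNA a library received. The MEL table holds 2 libraries before (0 h) and 2 after 96 h of induced differentiation. The methods describe the samples as independent biological replicates, and the p-values measure only the spread between these samples of 1 cell line.

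Reads are given as CPM, the reads of a gene scaled to the total counted on genes in the same library. The 13 shRNA libraries held between 44519414 and 57684583 counted reads, and the 8 *Gfi1b* and MEL libraries between 9929311 and 19623105, so that 3 counts stood for up to 0.0674 and up to 0.302 CPM, respectively. All 9 erythroid markers examined were listed in every table, with a summed level of 1447 to 4734 CPM. Those of macrophages (9 genes), lymphoid cells (7), plasmacytoid dendritic cells (4) and fibroblasts (5) summed to at most 7.03, 1.70, 144 and 44.3 CPM in any library, and the dendritic cell list includes *Bst2*, itself an interferon-stimulated gene, and *Tcf4*. The targeted gene fell in *Cbfa2t3* KD (402 and 427 CPM in the controls, 202 and 241 with sh2, 123 and 146 with sh3) and in *Kdm1a* KD (150.3 CPM in the control, 17.1 and 16.3 in KD). *Irf2bp2* went from 117 and 122 to 91.9 and 92.8 CPM, with a log2 fold change of -0.33 that is below the limit for a call. *Gfi1b* itself was at 121 and 145 CPM in the controls, at 217 CPM in the library labelled Gfi1b KD replicate 1 and at 76.4 CPM in the library labelled Gfi1b KD replicate 2, so that the first goes against its label. In bulk RNA, fewer cells that express a gene and less RNA per cell cannot be told apart.

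Interferons of type I bind the receptor IFNAR1-IFNAR2 on the cell surface. Its signal reaches transcription factors, STAT2 and IRF9 among them, that act through the interferon-stimulated response element (ISRE) in the promoters of its targets. The targets include the RNA sensors and the antiviral enzymes that the sensors set off, and also *Stat2*, *Irf7* and *Irf9* themselves, so that the pathway feeds back on its own parts. Many of these genes keep a low basal level in cells that have met no interferon.

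The promoters of these genes were searched for the ISRE. Its core was searched as GAAA, any 2 bases and GAAA, on both strands, in a window from 250 bases before to 50 bases after each gene's start, in the promoter sequences of RefSeq (GRCm38.p6). Of the 29 interferon-stimulated genes with a promoter in that table, 13 (44.8%) held the core, against 3.99% of all 27025 genes. A core shortened by its last base, which every match of the longer one contains, was found in 17 (58.6%) and in 9.76%. The 13 genes are *Ifih1*, *Ddx58*, *Eif2ak2*, *Oas1a*, *Oas3*, *Ifit1*, *Ifit3*, *Isg15*, *Stat2*, *Gbp2*, *Gbp3*, *Rsad2* and *Bst2*. A match describes the letters and is not evidence of binding. Shown are windows of 30 bases from 5 genes whose levels are followed below, on the strand of the gene and at their single exact match in mm9, with the core in capitals (from TTTC to TTTC where it lies on the other strand).
Ddx58, chr4:40186837-40186866, minus strand: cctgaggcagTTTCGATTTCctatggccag
Oas3, chr5:121227724-121227753, minus strand: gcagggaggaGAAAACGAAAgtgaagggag
Ifit1, chr19:34715284-34715313, plus strand: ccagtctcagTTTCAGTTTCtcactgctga
Isg15, chr4:155574980-155575009, minus strand: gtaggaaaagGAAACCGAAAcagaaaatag
Gbp3, chr3:142222953-142222982, plus strand: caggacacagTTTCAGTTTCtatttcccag
The *Isg15* promoter held 3 overlapping cores and the *Ifit1* and *Gbp3* promoters 2 each. *Isg15* encodes a ubiquitin-like modifier, *Ifit1* an RNA-binding antiviral protein, *Gbp3* a guanylate-binding GTPase, *Oas3* an oligoadenylate synthetase and *Ddx58* the RNA sensor RIG-I.

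Levels between genes were compared per length, as the deposited RPKM (reads per kilobase of the gene, scaled to library size) over the 9 control libraries of the 5 tables, which were scaled library by library and were not tested across tables. *Bst2*, which encodes tetherin, a membrane protein that holds virus particles on the cell, had the highest mean (42.8 ± 15.3 RPKM, SD, n = 9). It was followed by the exonuclease gene *Isg20* (39.03 ± 15.3 RPKM), by *Lgals3bp* (36.8 ± 6.37 RPKM), which encodes a secreted glycoprotein, by the synthetase-like gene *Oasl1* (29.8 ± 8.56 RPKM) and by *Trim25* (25.5 ± 2.64 RPKM), which encodes the ubiquitin ligase of RIG-I signalling (SD, n = 9 each). Neighbours in this order did not differ beyond their SDs, and the order was not the same in every table: *Isg20* was at 46.1 RPKM and *Bst2* at 40.0 RPKM in Lsd1 WT, and *Lgals3bp* (32.4 and 34.2 RPKM) exceeded *Bst2* (26.8 and 29.1 RPKM) in the MEL non-induced libraries. At the other end, 9 genes never reached 1 CPM in any library that lists them. These are *Ifit2*, *Ifit3*, *Mx1*, *Mx2*, *Gbp2*, *Rsad2*, *Cmpk2*, *Ifi44* and *Rtp4*, which include the classical antiviral effectors *Mx1* and viperin (*Rsad2*). *Ifi44* had at most 3 counts in all 21 libraries.

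Many interferon-stimulated genes fell in *Irf2bp2* KD, among them RNA sensors, oligoadenylate synthetases and *Irf7*. A gene was called where the quasi-likelihood test of edgeR gave a p of 0.05 or less after Benjamini-Hochberg adjustment and the log2 fold change was 0.5 or more in size. Of the 29 tested, 13 fell and 1 rose, while 12.5% of all genes tested fell and 10.1% rose. Their median log2 fold change was -0.58 against -0.01 over all genes, and 25 of 29 had a negative value. Both KD libraries lay below both controls for 23 of the 29, against 40.8% of all genes, and above both for 2, against 33.3%. The 10 symbols that were not tested are *Zbp1* and the 9 genes under 1 CPM.

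All 3 RNA helicases that sense viral RNA were among the lowered genes. *Ddx58* was at 18.2 and 20.4 CPM in the control libraries and at 4.40 and 3.18 CPM in KD (log2 fold change -2.32, SE 0.14, edgeR adjusted p = 1.45e-09). *Dhx58*, which encodes the regulatory helicase LGP2, was at 15.5 and 15.6 CPM and then at 4.25 and 3.70 CPM (log2 fold change -1.93, SE 0.13, edgeR adjusted p = 3.7e-09). *Ifih1*, the gene of the long-RNA sensor MDA5, went from 131 and 129 to 51.8 and 47.8 CPM (log2 fold change -1.35, SE 0.08, edgeR adjusted p = 1.36e-09). In each of the 3 genes both KD libraries lay below both controls, as they did for 40.8% of all genes. The RNA-activated kinase gene *Eif2ak2* and the RNA-editing enzyme gene *Adar* were not called, with log2 fold changes of -0.40 and -0.13.

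The oligoadenylate synthetases make the second messenger that activates RNase L. Of the 6 genes grouped with them here, the synthetase-like gene *Oasl1* included, 5 fell in *Irf2bp2* KD. *Oas2* had 27.5 and 34.6 CPM in the controls and 8.56 and 5.84 CPM in KD (log2 fold change -2.08, SE 0.15, edgeR adjusted p = 6.78e-09). *Oas1a* went from 3.78 and 5.40 to 1.57 and 1.44 CPM (log2 fold change -1.57), and *Oas1b* from 2.40 and 3.11 to 1.39 and 1.44 CPM (log2 fold change -0.92). The copies *Oas1a* and *Oas1g* are near-identical and can share reads, so that the split between them is uncertain, as it is among the *Gbp* genes. *Oasl1* went from 57.3 and 64.0 to 37.0 and 33.0 CPM (log2 fold change -0.76, SE 0.09, edgeR adjusted p = 3.35e-06), and *Oasl2* from 0.834 and 2.07 to 0.629 and 0.397 CPM (log2 fold change -1.47). In each of these 5 genes both KD libraries lay below both controls, as they did for 40.8% of all genes. *Oas3* was not called, at 27.6 and 44.8 CPM in the controls and 27.2 and 24.6 CPM in KD.

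*Irf7*, the gene of the transcription factor that amplifies interferon production, fell as well. Its level was 8.50 and 14.5 CPM in the controls and 2.56 and 2.02 CPM in KD (log2 fold change -2.30, SE 0.21, edgeR adjusted p = 2.25e-07). The transcription factor genes *Stat2* (23.1 and 23.4 CPM in the controls, 24.4 and 22.9 CPM in KD) and *Irf9* (log2 fold change -0.40) were not called. *Samd9l*, which encodes an antiviral restriction factor, went from 12.5 and 11.5 to 4.65 and 3.97 CPM (log2 fold change -1.44, SE 0.14, edgeR adjusted p = 2.85e-07). Of the partners PARP9 and DTX3L, which act together in ubiquitination, *Parp9* went from 12.2 and 12.9 to 6.29 and 5.52 CPM (log2 fold change -1.05) and *Dtx3l* from 31.1 and 32.5 to 21.0 and 20.4 CPM (log2 fold change -0.58). *Gbp3* went from 0.692 and 1.10 to 0.472 and 0.302 CPM (log2 fold change -1.19, SE 0.37, edgeR adjusted p = 0.0142). The single gene that rose was *Isg20*, from 43.0 and 57.3 to 73.9 and 73.0 CPM (log2 fold change 0.59, SE 0.11, edgeR adjusted p = 0.000223). None of the 4 genes of the ISG15 system was called (*Herc6* -0.46, *Usp18* -0.59 and *Trim25* 0.04 on the log2 scale), and *Isg15* itself was at 3.07 and 4.62 CPM in the controls and 4.81 and 4.99 CPM in KD.

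Leaving out each library in turn gave 0 to 2 genes higher and 11 to 17 lower (13 to 17 calls), against 8.95% to 11.5% and 10.9% to 12.5% of all genes in these fits. *Gbp3* lost its call without Irf2bp2 WT replicate 2 or either KD library, *Oasl2* without Irf2bp2 WT replicate 2 or Irf2bp2 KD-sh1 replicate 2, and *Isg20* without Irf2bp2 WT replicate 1. Erythroid markers moved in the same libraries: 8 of the 9 rose, and their summed level was 1467 and 1571 CPM in the controls and 3641 and 3800 CPM in KD. The dendritic cell list, with *Tcf4* and *Bst2*, went from 116 and 121 to 56.0 and 56.5 CPM, with 1 of 2 tested genes lower. The macrophage list went from 3.36 and 3.52 to 2.49 and 1.95 CPM and the fibroblast list from 6.06 and 5.58 to 2.79 and 2.76 CPM, each with 1 of 2 tested genes lower. Their part in the result was not tested.

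**Figure D1:**
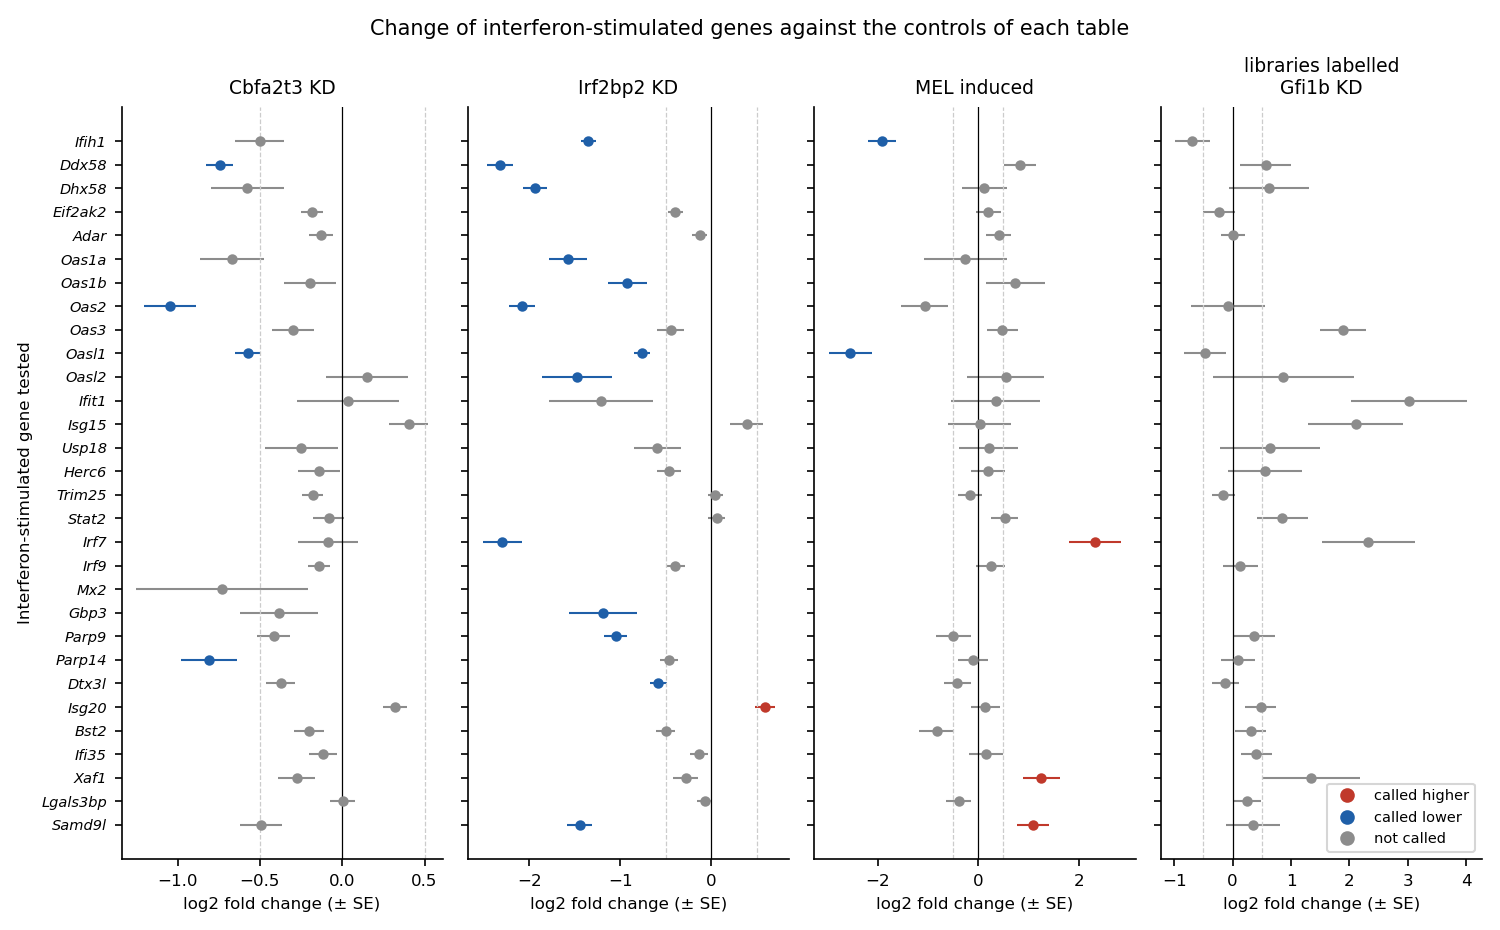
Log2 fold change (points, with the standard error of edgeR's fit as bars) of each tested interferon-stimulated gene against the controls of its own table, for *Cbfa2t3* KD, *Irf2bp2* KD, MEL induction and the libraries labelled Gfi1b KD, each with its own horizontal scale. Dashed lines mark the limit of 0.5, and in *Irf2bp2* KD 13 genes are called lower and 1 higher.

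In *Cbfa2t3* KD 4 genes fell, 3 of them also called in *Irf2bp2* KD. With both hairpins as 1 group, 4 of 30 tested genes fell and none rose by edgeR's test, while 2.75% of all genes fell and 2.99% rose. The median log2 fold change was -0.23 against 0.00 over all genes, and 25 of 30 values were negative. All 4 KD libraries lay below both controls for 15 of the 30 genes, against 19.3% of all genes, and above both for 2, against 18.5%. An unadjusted p under 0.05 was reached by 16 of the 30 and by 26.2% of all genes.

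*Oas2* was at 43.4 and 52.9 CPM in the controls, 18.8 and 20.2 CPM with sh2 and 25.2 and 28.6 CPM with sh3 (log2 fold change -1.05, SE 0.16, edgeR adjusted p = 0.00379). *Ddx58* was at 19.3 and 19.8 CPM in the controls, 11.1 and 12.1 CPM with sh2 and 11.03 and 12.2 CPM with sh3 (log2 fold change -0.75, SE 0.08, edgeR adjusted p = 0.000941). *Oasl1* was at 84.1 and 89.4 CPM in the controls, 52.0 and 62.4 CPM with sh2 and 58.1 and 60.1 CPM with sh3 (log2 fold change -0.57, SE 0.08, edgeR adjusted p = 0.00273). In these 3 genes both hairpins lay below the controls without overlap, as they did for 19.3% of all genes. *Oas2*, *Ddx58* and *Oasl1* were also called lower in *Irf2bp2* KD (75% of the 4 genes lowered in *Cbfa2t3* KD, 23.1% of the 13 in *Irf2bp2* KD). Over the 12225 genes tested in both comparisons, those lowered in both made up 59.6% of the genes lowered in *Cbfa2t3* KD and 13.3% of those lowered in *Irf2bp2* KD, and nothing particular to the 3 genes can be read from their overlap. *Parp14*, which encodes a large ADP-ribosyltransferase, was lower in both sh2 libraries than in both sh3 libraries. Its level was 24.6 and 27.2 CPM in the controls, 12.2 and 11.8 CPM with sh2 and 16.95 and 18.01 CPM with sh3 (log2 fold change -0.81, SE 0.17, edgeR adjusted p = 0.0163).

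*Ifih1* and *Dhx58* were also lower in both sh2 than in both sh3 libraries. *Ifih1* was at 136 and 129 CPM in the controls, 76.4 and 78.3 CPM with sh2 and 109 and 109 CPM with sh3, and was not called with both together (edgeR adjusted p = 0.0662). *Dhx58* followed the same order, with 10.5 and 13.2 CPM in the controls, 6.46 and 5.75 CPM with sh2 and 8.96 and 10.5 CPM with sh3. Fitted alone, sh2 gave 11 calls and sh3 gave 5, all of them lower, against 3.78% and 4.8% of all genes in these fits. *Cbfa2t3* itself was lower in both sh3 than in both sh2 libraries. A test of sh2 against sh3 was not run. Without Eto2 WT replicate 2 only *Ddx58* kept its call (1.36% of all genes lower), without Eto2 WT replicate 1 *Parp14* lost its own, and without Eto2 KD-sh3 replicate 2 there were 7 calls, all lower (2.58% of all genes). Of the erythroid markers 5 of 9 rose, with sums of 1744 and 1759 CPM in the controls and 2361 to 2737 CPM in KD. The dendritic cell list went from 104 and 106 to between 77.3 and 81.8 CPM, with 1 of 2 tested genes lower, and the fibroblast list was at 6.399 and 8.34 CPM in the controls and at 2.10 to 5.71 CPM in KD, with none of 2 called. Macrophage markers summed to 4.49 and 4.55 CPM and then to between 3.14 and 3.94 CPM, with none of 2 called. The part of these lists was not tested.

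The effects of the 2 knockdowns were compared directly in 1 edgeR fit of all 13 shRNA libraries, where 31 genes were tested. The change in *Cbfa2t3* KD minus that in *Irf2bp2* KD was above 0 and called for 10 of them and below 0 for none, while 8.73% of all genes were called above 0 and 7.69% below. *Irf7* differed most. Fitted within each table its log2 fold change was -0.09 in *Cbfa2t3* KD and -2.30 in *Irf2bp2* KD, and the difference in the joint fit was 2.18 (SE 0.26, edgeR adjusted p = 1.65e-05). Its levels with sh2 (10.9 and 9.29 CPM) and sh3 (14.5 and 14.5 CPM) lay near those of the controls (11.7 and 14.5 CPM). *Oasl1*, *Dtx3l* and *Parp14* showed no called difference, with differences of 0.18 (edgeR adjusted p = 0.248), 0.20 (edgeR adjusted p = 0.125) and -0.38 (edgeR adjusted p = 0.0155, but under the limit of 0.5).

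**Figure D2:**
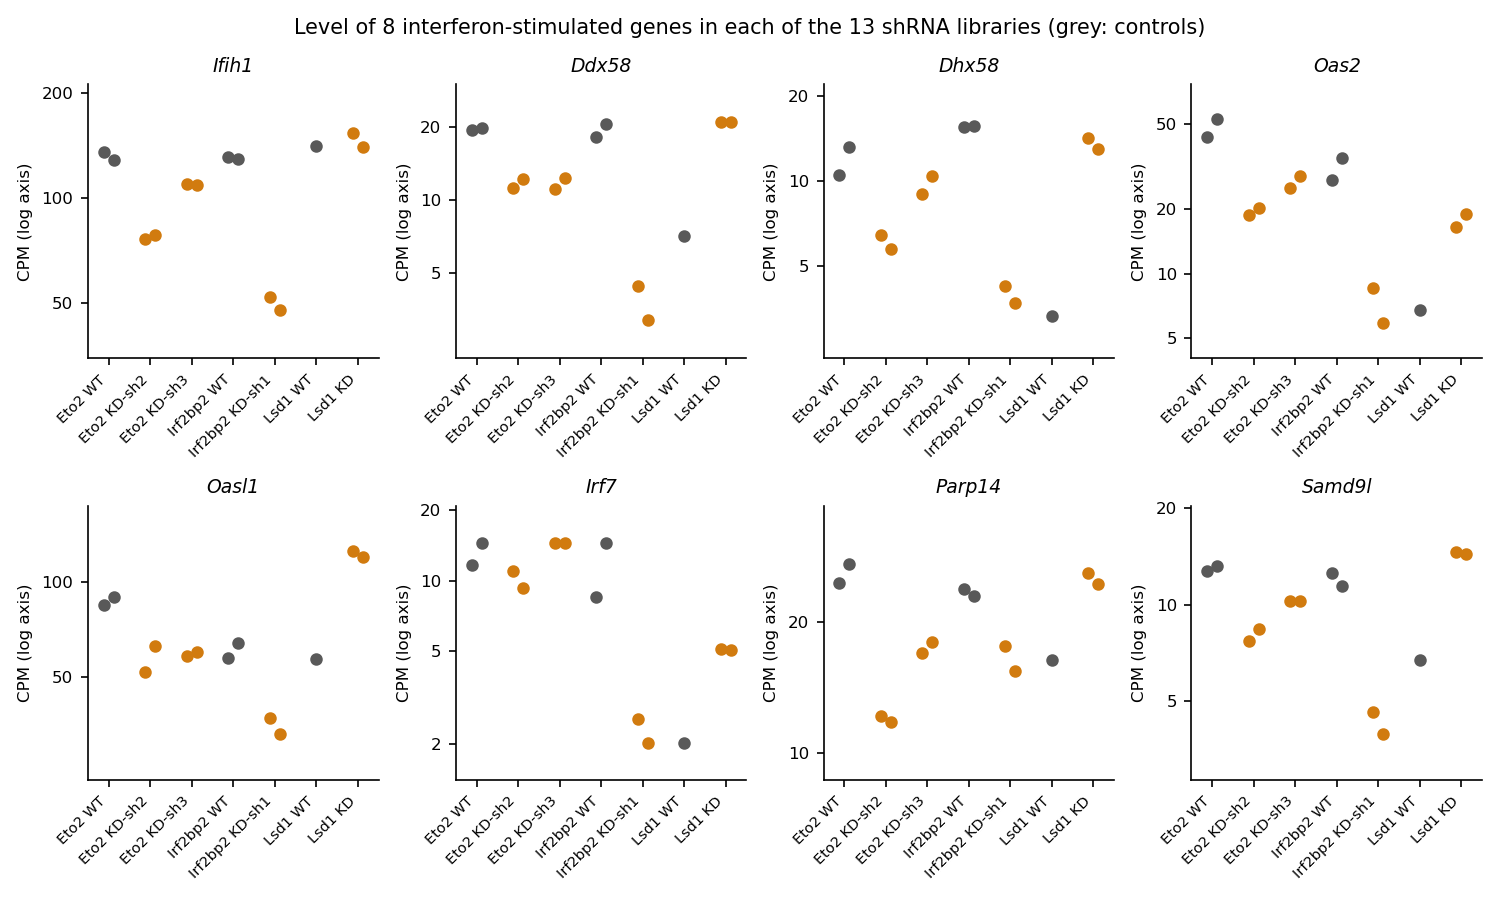
CPM (log axis) of *Ifih1*, *Ddx58*, *Dhx58*, *Oas2*, *Oasl1*, *Irf7*, *Parp14* and *Samd9l* in each shRNA library, 1 point per library, with control libraries in grey and KD libraries in orange. The Irf2bp2 KD-sh1 points are below both of their controls in every panel, and the single Lsd1 WT point is below the other 4 controls for all but *Ifih1*.

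*Kdm1a* KD gave the opposite picture against its own control, and that picture rests on 1 control library. In the fit of 13 libraries, where this lone control is assumed to vary like the other groups, 18 of 31 genes rose and 1 fell by edgeR's test. Of all genes tested, 11.4% rose and 9.36% fell. The median log2 fold change was 0.86 against 0.01 over all genes. The control, however, lay below all 4 controls of the *Cbfa2t3* and *Irf2bp2* tables for 26 of the 31 genes and above all 4 for 1, whereas it was below them for 25.5% and above them for 13.9% of all genes. It was below them for each of the 18 genes that rose. These were called against this same control, so that a low control favours their selection. The share among all genes that rose was not computed.

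The largest rises were those of *Ifit1*, *Oasl2* and *Isg15*, 3 genes with low levels in the control. *Ifit1* had 2 counts (0.0406 CPM) in the control and 1.68 and 1.37 CPM in the KD libraries, a ratio of 37.9 with a 95% exact (Clopper-Pearson) interval of 10.3 to 316 that covers counting error only. The other 4 controls were at 0.266 to 0.748 CPM, still below both KD libraries. *Oasl2* was at 0.142 CPM in the control, 2.89 and 2.49 CPM in KD (log2 fold change 4.21, SE 0.59, edgeR adjusted p = 3.88e-05) and 0.834 to 2.07 CPM in the other controls. *Isg15* was at 1.298 CPM in the control, 11.4 and 10.3 CPM in KD (log2 fold change 3.05, SE 0.23, edgeR adjusted p = 6.75e-08) and 3.07 to 7.37 CPM in the other controls. For these 3 genes both KD libraries were above all 5 shRNA controls, as they were for 9 of the 31 genes and for 23.2% of all genes.

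*Oasl1*, *Stat2*, *Ddx58*, *Samd9l* and *Gbp3* shared that position. *Oasl1* was at 57.1 CPM in the control and 125 and 119.6 CPM in KD (log2 fold change 1.09, SE 0.11, edgeR adjusted p = 1.06e-06), with the other controls at 57.3 to 89.4 CPM. *Stat2* was at 12.6 CPM and then 25.9 and 26.2 CPM (log2 fold change 1.04, SE 0.11, edgeR adjusted p = 1.8e-06), with the other controls at 16.3 to 23.4 CPM. *Ddx58* was at 7.08 CPM and then 20.9 and 20.8 CPM (log2 fold change 1.55, SE 0.14, edgeR adjusted p = 5.58e-07), but the other controls reached 18.2 to 20.4 CPM, so that the KD libraries exceeded them by little. The same held for *Samd9l*, with 6.71 CPM in the control, 14.6 and 14.4 CPM in KD and 11.5 to 13.2 CPM in the other controls, and for *Gbp3*, with 0.385, 1.23 and 1.37 and 0.692 to 1.18 CPM.

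For the other genes that rose, at least 1 KD library lay within or under the range of the other controls. *Dhx58* rose from 3.33 CPM in its own control to 14.2 and 12.96 CPM in KD (log2 fold change 2.02, SE 0.17, edgeR adjusted p = 2.21e-07), within the 10.5 to 15.6 CPM of the other controls. *Oas2* rose from 6.77 to 16.5 and 19.04 CPM (log2 fold change 1.38, SE 0.20, edgeR adjusted p = 5.37e-05), below the other controls at 27.5 to 52.9 CPM. *Irf7* (2.03 CPM in the control, 5.09 and 5.06 CPM in KD, 8.50 to 14.5 CPM in the other controls) and the pro-apoptotic gene *Xaf1* (5.50, 10.8 and 10.9 and 13.3 to 19.2 CPM) did the same. *Lgals3bp* was the gene that fell, from 76.8 CPM in the control to 39.6 and 41.8 CPM in KD (log2 fold change -0.93, SE 0.09, edgeR adjusted p = 5.4e-07). Both KD libraries were below all 5 controls (other controls 85.0 to 97.8 CPM), as they were for 4 of the 31 genes and for 25.5% of all genes. Leaving out single libraries cost *Usp18* its call without either Eto2 WT library, *Oas3* and *Usp18* theirs without Lsd1 KD replicate 1 and *Oas1b* its own without Lsd1 KD replicate 2. Of the 9 erythroid markers 1 rose and 3 fell, with a sum of 1808 CPM in the control and 1552 and 1589 CPM in KD. The fibroblast list went from 6.23 to 24.6 and 21.1 CPM and the lymphoid list from 0.304 to 1.34 and 1.57 CPM, each with both of its 2 tested genes higher. Macrophage markers summed to 4.36 CPM in the control library, against 4.38 and 4.87 CPM in KD, with 1 of 3 tested genes higher and 1 lower, and dendritic cell markers to 88.0, against 98.95 and 92.6 CPM, with none of 2 called. Against the 5 controls 1 of the 2 fibroblast and both lymphoid genes were still called higher. The part of these lists was not tested.

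With all 5 shRNA controls as 1 group, 4 of 30 genes rose and 3 fell, while 10.3% of all genes rose and 9.67% fell, and the median log2 fold change of the 30 was 0.08. The 4 were *Ifit1* (log2 fold change 2.05, edgeR adjusted p = 0.00294), *Isg15* (1.26, edgeR adjusted p = 0.0205), *Oasl1* (0.82, edgeR adjusted p = 0.00112) and *Stat2* (0.51, edgeR adjusted p = 0.0261). The 3 that fell were *Oas1a* (-1.12), the ligase gene *Herc6* (-0.75) and *Lgals3bp* (-1.11). Against the 4 controls of the other tables alone, an alternative chosen after seeing the data, 4 of 31 rose and 8 fell, with 10.1% and 9.49% among all genes. *Oas2* (-1.12, edgeR adjusted p = 0.0024), *Oas3* (-1.13, edgeR adjusted p = 0.000151), *Irf7* (-1.24, edgeR adjusted p = 0.000438) and *Xaf1* (-0.59, edgeR adjusted p = 0.0068) then fell, where they rose against their own control. A rise of *Ifit1*, *Isg15* and *Oasl1* and a fall of *Lgals3bp* were called against each of the 3 sets of controls. The set of 5 contains the other sets, and the KD libraries are the same each time, so that these calls are not independent. Whether the control or the KD libraries of this table stand apart cannot be told apart with 1 control.

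Relative to *Cbfa2t3* KD, the change in *Kdm1a* KD was higher for 22 of 31 genes and lower for 1 in the same fit (13.8% and 11.5% of all genes). With the controls of the other 2 tables in place of the *Kdm1a* control it was higher for 12 and lower for 6 (14.7% and 13% of all genes).

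**Figure D3:**
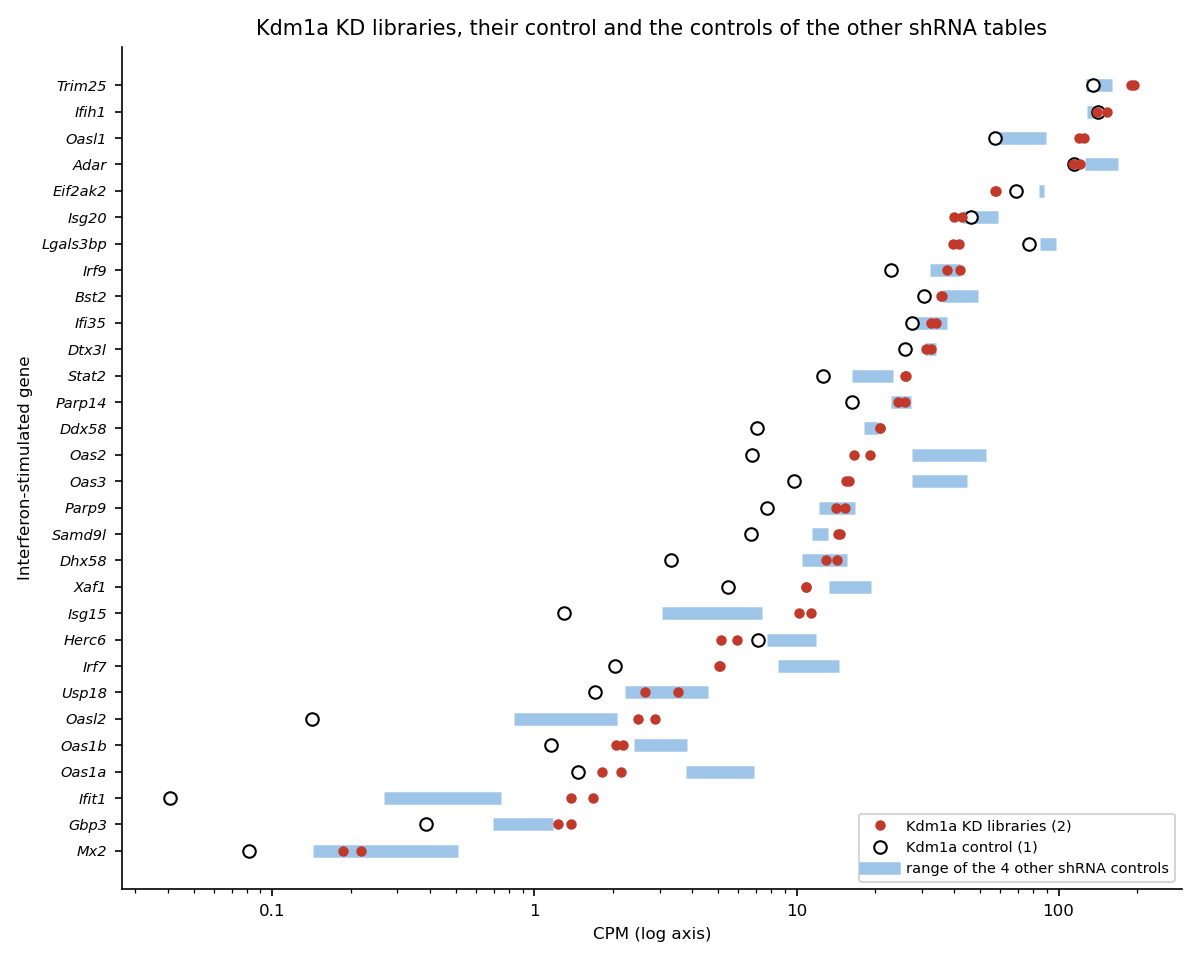
CPM (log axis) of 30 of the 31 interferon-stimulated genes tested in *Kdm1a* KD (*Mx1*, with a control at 0, is left out): the 2 KD libraries (red), their single control (open circles) and the range of the 4 controls of the other shRNA tables (blue bars). The open circle lies left of the bar for most genes, and the red points lie right of the bar for *Ifit1*, *Isg15*, *Oasl1*, *Oasl2* and *Stat2* among others.

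Induced differentiation of MEL cells moved few of these genes, and in both directions. Of 28 tested, 3 rose and 2 fell by edgeR's test, against 12.4% and 14.8% of all genes, so that the share called was not above that of all genes. The median log2 fold change was 0.17 against -0.02. *Ifih1* went from 137 and 205 CPM at 0 h to 52.2 and 39.1 CPM at 96 h (log2 fold change -1.92, SE 0.28, edgeR adjusted p = 0.000378), and *Oasl1* from 81.3 and 38.8 to 15.1 and 5.59 CPM (log2 fold change -2.55, SE 0.43, edgeR adjusted p = 0.000975). Both genes were also lower in *Irf2bp2* KD. *Irf7* went the other way, from 2.55 and 2.79 to 20.7 and 6.35 CPM (log2 fold change 2.32, SE 0.52, edgeR adjusted p = 0.00565), and its 2 induced libraries differed widely. *Xaf1* went from 6.01 and 9.35 to 19.4 and 17.3 CPM (log2 fold change 1.26, SE 0.36, edgeR adjusted p = 0.0207) and *Samd9l* from 12.4 and 17.6 to 27.1 and 36.4 CPM (log2 fold change 1.08, SE 0.32, edgeR adjusted p = 0.0242). *Irf7* and *Samd9l*, which rose here, were called lower in *Irf2bp2* KD as well. The share of genes called in both comparisons was not computed over all genes. None of the 5 genes overlapped between the time points. In all, 8 of the 28 were higher and 7 lower in both induced libraries than in both others, against 33.3% and 33.9% of all genes. The 3 rises were lost without MEL non-induced replicate 1, which left 2 calls, both lower (7.25% of all genes), and *Irf7* was also lost without MEL non-induced replicate 2 or MEL induced replicate 1, and *Samd9l* without MEL induced replicate 2. Erythroid markers rose in the same libraries (7 of 9), from a sum of 2012 and 2244 CPM to 3706 and 4734 CPM. The fibroblast list went from 24.2 and 21.7 to 11 and 3.52 CPM, with its 1 tested gene lower, and the macrophage list from 7.03 and 4.35 to 3.90 and 2.62 CPM, with none of 2 called. The part of these lists was not tested.

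In the *Gfi1b* table none of 26 tested genes was called by edgeR, and no gene of the whole table was (0% of 11190). An unadjusted p under 0.05 was reached by 4 of the 26 and by 7.01% of all genes, and DESeq2 called 1, *Oas3*. The 2 libraries labelled Gfi1b KD differed from each other. *Irf7* was at 1.91 and 1.31 CPM in the controls, and at 13.5 and 2.80 CPM in the libraries labelled Gfi1b KD replicate 1 and 2. *Xaf1* was at 3.47 and 3.73 CPM in the controls and at 16.0 and 2.21 CPM in the same 2 libraries, and *Oas1b* at 0.340 and 0.201 and at 4.39 and 0.0849 CPM. Replicate 1, which carries more *Gfi1b* than either control, was the high one of the pair in these 3 genes. It was so in 16 of the 26 tested, and replicate 2 in 10, such as *Ifih1* (54.9 and 92.3 CPM). The split over all genes was not computed, so that nothing particular to these genes can be read from it. In replicate 1 the erythroid markers summed to 3574 CPM against 1447 to 1590 CPM in the other 3 libraries. For *Oas3* both libraries, at 30.5 and 16.7 CPM, exceeded the controls at 7.08 and 5.54 CPM, as both did for *Irf7*. Without replicate 2 of the KD label, 7 of 27 tested genes were called higher and 2 lower (9 in all), against 14.6% and 12% of all genes in that fit. Without replicate 1 only *Oas3* was called, as higher, against 2.25% of all genes. In such fits the KD arm is 1 library, which is assumed to vary like the controls, and in the former it is the library that goes against its label. Both KD-labelled libraries were above both controls for 8 of the 26 genes and below both for 3, against 20.1% and 19% of all genes.

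**Figure D4:**
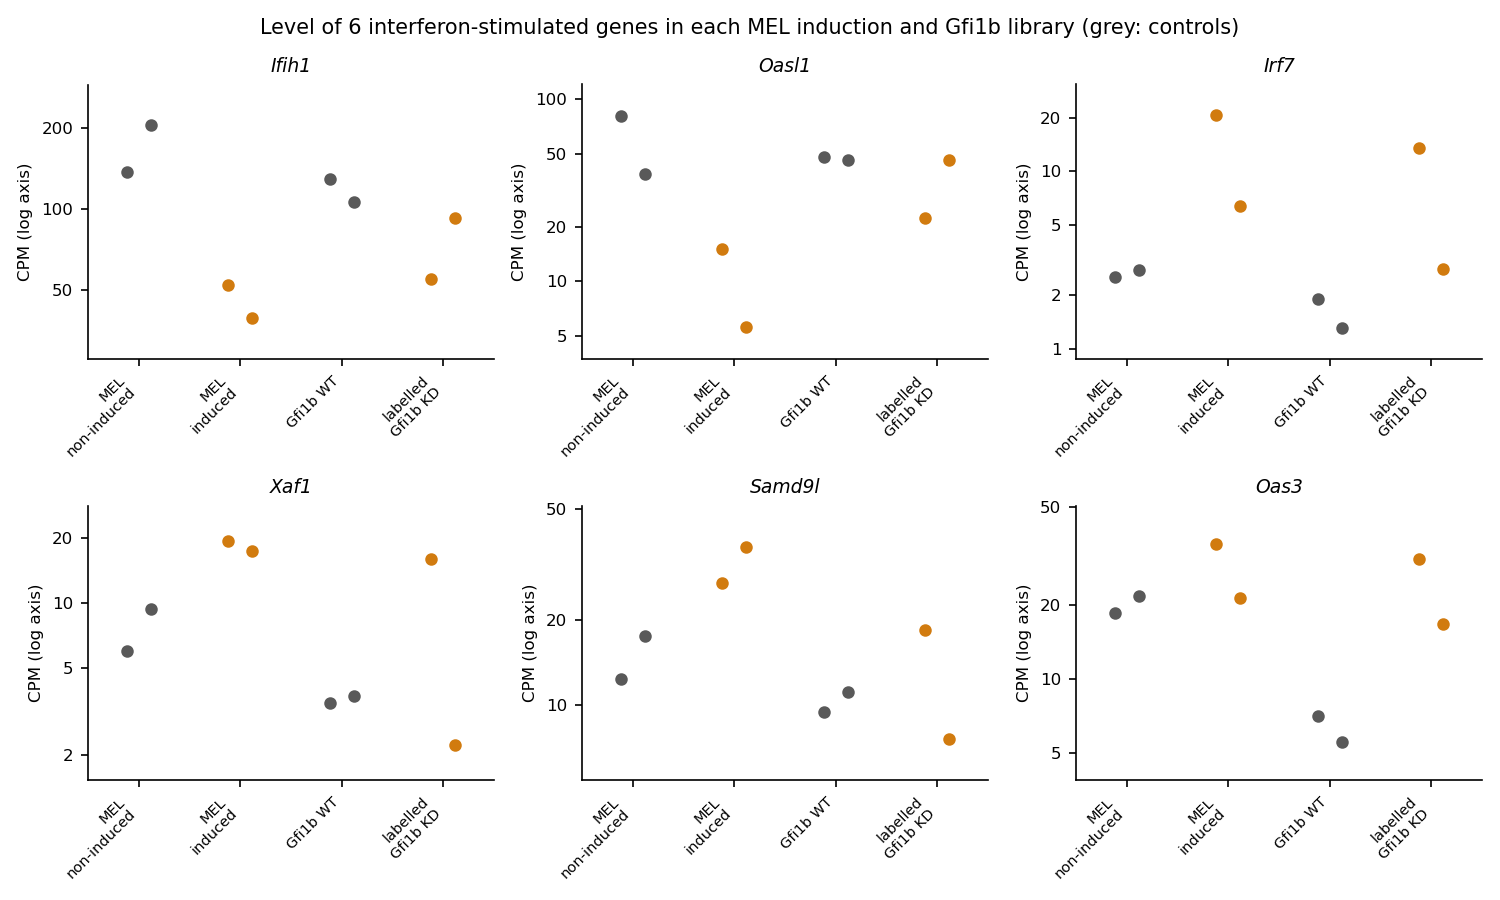
CPM (log axis) of *Ifih1*, *Oasl1*, *Irf7*, *Xaf1*, *Samd9l* and *Oas3* in each library of the MEL induction and *Gfi1b* tables, 1 point per library, with controls in grey and induced or KD-labelled libraries in orange. *Ifih1* and *Oasl1* are low in both induced libraries, and the points labelled Gfi1b KD are far apart for *Irf7* and *Xaf1*.

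The rest of the interferon pathway was followed with a list of 101 further genes. Of 12 ligand symbols 6 had a row, and of these only *Ifnz* exceeded 1 count in any library. *Ifnb1*, the gene of interferon beta, had at most 1 count in the 9 libraries that list it. In *Irf2bp2* KD 22 of 74 tested pathway genes fell and 5 rose, with 12.5% and 10.1% among all genes. *Irf1* (log2 fold change 0.18), *Irf2* (0.21), *Ifnar1* (0.01) and *Ifnar2* (-0.27) were not called. Of 6 tested receptor genes, the 2 that fell encode the interferon gamma receptor, *Ifngr1* from 37.6 and 38.4 to 17.3 and 15.1 CPM (log2 fold change -1.20) and *Ifngr2*, named after its values were seen, from 15.6 and 16.4 to 7.75 and 7.45 CPM (-1.04). *Socs3*, a feedback inhibitor of JAK-STAT signalling, rose from 3.87 and 4.21 to 10.8 and 10.9 CPM (log2 fold change 1.46, SE 0.14, edgeR adjusted p = 2.05e-07). Among the other interferon genes 17 of 40 fell, led by *Trim30a* (-2.11), *Ifi203* (-1.86), *Trim34a* (-1.66) and *Ifi27* (-1.47, all log2 fold changes).

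In *Cbfa2t3* KD 7 of 77 pathway genes fell and 3 rose, with 2.75% and 2.99% among all genes. The chemokine gene *Ccl5* (-1.06), *Ifi27l2a* (-1.11) and *Irf2bpl* (-0.68), which encodes a protein of the IRF2BP family, were among the log2 falls, and *Socs3* (0.56) among the rises. In MEL induction 12 of 71 rose and 9 fell, near the 12.4% and 14.8% of all genes. Among the rises were *Irf2* (log2 fold change 0.86), *Socs3* (1.68) and the ISG15 enzymes *Uba7* (1.91) and *Ube2l6* (1.99), and *Ifi47*, an immunity-related GTPase gene, among the falls (-2.79).

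In *Kdm1a* KD 25 of 78 pathway genes rose and 3 fell against the table's own control, with 11.4% and 9.36% among all genes. Against the 5 controls 13 rose and 7 fell (10.3% and 9.67% of all genes), and 13 rose and 8 fell against the 4 controls of the other tables (10.1% and 9.49%). *Tmem173*, the gene of the DNA-sensing adaptor STING, had 2 counts (0.0406 CPM) in the control and 7.96 and 7.68 CPM in KD, a ratio of 193 with a 95% exact counting interval of 53.3 to 1597, and it stayed at or below 0.159 CPM in the other 4 controls. *Ifngr2* went from 14.0 to 55.6 and 57.9 CPM, with 13.7 and 12.98 CPM in the Eto2 WT and 15.6 and 16.4 CPM in the Irf2bp2 WT libraries. The chemokine gene *Cxcl10* went from 0.385 to 1.98 and 2.07 CPM and *Irf1* from 4.28 to 8.80 and 7.96 CPM. Against the 5 controls *Tmem173* (7.03), *Cxcl10* (2.25), *Ifngr2* (1.99), the kinase gene *Tbk1* (1.22) and *Irf1* (0.83, all log2 fold changes) were still called higher. The fitted value of *Tmem173* depends on the model's prior count and is no bound. The fibroblast and lymphoid marker lists, given above, were higher in the same KD libraries, and their part was not tested.

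Binding of the co-repressors near these genes was read from the deposited list of 13229 ETO2 and IRF2BP2 ChIP-Seq sites on mm9, in which 1760 are bound by ETO2 only, 2730 by both and 8739 by IRF2BP2 only, the class codes having been read by the size of each class. Of the 39 genes, 18 had a site whose centre lay within 20 kb of the transcription start site (TSS), and all 18 are among the 31 tested in the *Kdm1a* fit. The share among these 31 was therefore set against the 11379 genes tested in the same fit and placed on mm9. A site of any class was present at 58.1% of the 31 and at 48.8% of all genes. Sites of IRF2BP2 alone lay near 14 of the 31 (45.2%, against 41.4% of all genes), shared sites near 2 (6.45% against 12%) and sites of ETO2 alone near 3 (9.68% against 7.43%). Within 5 kb the share with any site was 41.9% (13 genes) against 30.5%. These differences were not tested. The labels hold 1 IRF2BP2 ChIP library with its IgG control and none for ETO2, whose data the study took from an earlier data set, so that the sites have no replicate here.

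The sites at *Oas3*, *Herc6*, *Oasl1* and *Ifi35* were centred closest to a TSS, and others lay further away. At *Oas3* a site of IRF2BP2 alone (chr5:121227318-121227942, 8.75-fold over IgG) was centred 17 bases upstream of the TSS and covered the ISRE core printed above. At *Herc6* such a site (chr6:57530639-57531695, 4.60-fold over IgG) was centred 15 bases downstream, in an exon, and held 2 cores. At *Oasl1* it was centred 55 bases upstream (chr5:115372841-115374244, 3.12-fold over IgG), at *Ifi35* 67 bases downstream in an exon (chr11:101308998-101310260, 4-fold over IgG) and at *Isg20*, the gene that rose in *Irf2bp2* KD, 752 bases downstream in an intron (chr7:86058267-86059316, 7-fold over IgG). The *Ifih1* site (chr2:62481839-62482877, 5-fold over IgG) lay in an intron, 2277 bases downstream, and 1 site (chr16:35939492-35940613, 5.62-fold over IgG) lay near the starts of both *Dtx3l* and *Parp9*. Cores inside the sites are shown on the strand of the gene, in capitals as before.
Herc6, chr6:57531426-57531455, plus strand: tcttcattgaGAAACTGAAAgcaaaaaagc
Isg20, chr7:86058802-86058831, plus strand: taatgaaccaGAAACTGAAActaaaacagg
Oasl1, chr5:115372966-115372995, plus strand: gactaggctcTTTCTCTTTCcaaacctcag
*Isg15* had a shared site (chr4:155576403-155576971, 17-fold over IgG) centred 1833 bases upstream, which does not cover its ISRE cores. Of 11 genes with a site of IRF2BP2 alone within 5 kb, 5 fell in *Irf2bp2* KD (*Oasl1*, *Gbp3*, *Dtx3l*, *Parp9* and *Ifih1*), *Isg20* rose, and 5 were not called (*Oas3*, *Herc6*, *Ifi35*, *Irf9* and *Trim25*), beside 13 that fell of all 29 tested. *Ddx58* and *Irf7*, which also fell, had no listed site within 20 kb. The relation of sites to changes was not tested.

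**Figure D5:**
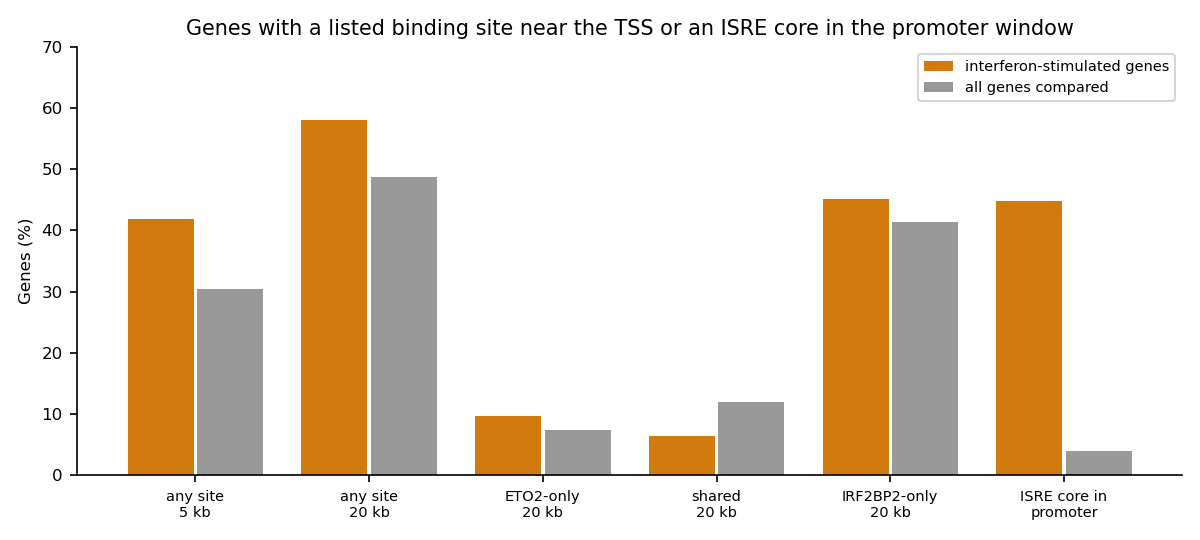
Share of the interferon-stimulated genes (orange, the 31 tested in the *Kdm1a* fit for sites and the 29 with a RefSeq promoter for the core) and of all genes compared (grey), in percent, with a listed binding site whose centre is within 5 or 20 kb of the TSS, by class of site, or with the ISRE core in the promoter window. The shares with any site within 20 kb are 58.1% and 48.8%, those with a shared site 6.45% and 12%, and the ISRE core is found in 44.8% against 3.99%.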

How the data were processed

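RNA-Seq was measured in 21 libraries. The authors aligned reads to mm9 with TopHat2 and used rpkmforgenes to count them on RefSeq genes, and deposited raw counts and RPKM values (reads per kilobase, scaled to library size). The authors' deposited tables also hold their own comparisons (log2 fold changes, p-values and adjusted p-values), which were not used. ChIP-Seq reads were aligned with Bowtie, and the deposited list of sites gives the authors' fold (ratio) over IgG and an adjusted p-value per site, with samples pooled into 1 list; the p-values and 4 per-site read columns were not used. 1 pathway gene is not reported here.

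Counts were tested with edgeR's quasi-likelihood test (edgeR 4.0.16 and limma 3.58.1 in R 4.3.3), with TMM scaling, edgeR's filter on low counts and Benjamini-Hochberg adjustment over all genes of a table. Each table was fitted alone, except that *Kdm1a* KD and the differences between knockdowns came from 1 fit of the 13 shRNA libraries. Calls needed an adjusted p of 0.05 or less and a log2 fold change of 0.5 or more in size. Alternatives were DESeq2 1.42.0, its size factors, other filters, fold limits, hairpins and control sets, the replicate number as a block, and each library left out. Counting intervals and floors cover counting error only. Start sites of genes on mm9 were those of GENCODE vM1. Python 3.11.15, pandas 2.3.3, pysam 0.24.0 and matplotlib 3.10.9 were used for sites, sequences and figures.

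Values by library were given for called genes, at most the 12 largest changes per comparison, and for the 5 genes of highest RPKM. Pathway genes were named at most 8 per comparison, besides *Irf1*, *Irf2*, *Ifnb1*, *Ifnar1* and *Ifnar2*. Values of other genes, and of genes not called, were added after they were seen. The interferon-stimulated genes and lists were chosen with earlier results of these data known. Groups are those of the labels. The times after delivery come from a figure legend of the study.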

Additional observations from a re-analysis of the deposited data

Results flagged for a closer look

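The change in *Cbfa2t3* KD and that in *Irf2bp2* KD differed for 10 interferon-stimulated genes by edgeR's test of the difference itself, with Benjamini-Hochberg adjustment over all genes. The difference in log2 fold change, *Cbfa2t3* KD minus *Irf2bp2* KD, was 2.18 for *Irf7*, 1.59 for *Oasl2*, 1.57 for *Ddx58*, 1.31 for *Dhx58*, 1.01 for *Oas2*, 0.93 for *Samd9l*, 0.89 for *Oas1a*, 0.82 for *Ifih1*, 0.71 for *Oas1b* and 0.62 for *Parp9*. In each of them the value was lower in *Irf2bp2* KD, and both comparisons have their own controls.

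The change in *Kdm1a* KD and that in *Cbfa2t3* KD differed for 23 genes by the same test. The difference in log2 fold change, *Kdm1a* KD minus *Cbfa2t3* KD, was 5.15 for *Ifit1*, 4.09 for *Oasl2*, 2.65 for *Isg15*, 2.64 for *Dhx58*, 2.45 for *Oas2*, 2.29 for *Ddx58*, 2.12 for *Gbp3*, 1.66 for *Oasl1*, 1.61 for *Samd9l*, 1.45 for *Parp14*, 1.42 for *Irf7*, 1.35 for *Parp9*, 1.25 for *Xaf1*, 1.14 for *Usp18*, 1.12 for *Stat2*, 1.09 for *Oas1a*, 1.06 for *Oas1b*, 0.98 for *Oas3*, 0.93 for *Irf9*, 0.67 for *Trim25*, 0.66 for *Dtx3l*, 0.57 for *Ifih1* and -0.93 for *Lgals3bp*. The value for *Ifit1*, which had 2 counts in that control, depends on the model's prior count and is no bound. These differences rest on the single control library of the *Kdm1a* table, which was below the other 4 shRNA controls for 26 of 31 genes. No group of the labels holds 4 libraries, so single libraries far from their group were not tested.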

How the results depend on the processing

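The count of called interferon-stimulated genes was recomputed under each alternative. In brackets are the shares of all genes called higher and lower in the same fit. In *Cbfa2t3* KD (4 lower, 2.99% and 2.75%) there were 7 lower with no filter on low counts (2.31% and 2.23%), 1 higher and 7 lower (8 in all) with no limit on the fold change (5.47% and 5.88%), 1 lower at a log2 limit of 1 (1.34% and 0.869%) and 11 lower with the sh2 libraries alone (3.33% and 3.78%). In the *Gfi1b* table (0 calls) 1 was higher with DESeq2's Wald test (0.338% and 0.0402%) and 2 with no filter (2.27% and 0.135%). In *Kdm1a* KD (18 higher and 1 lower, 19 calls, 11.4% and 9.36%) 11 were higher at a log2 limit of 1 (4.58% and 2.44%), 4 were higher and 3 lower (7 in all) against the controls of all 3 shRNA tables (10.3% and 9.67%), and 4 higher and 8 lower (12 in all) against those of the other 2 tables (10.1% and 9.49%). Leaving out each library in turn gave 1 to 7 calls in *Cbfa2t3* KD, all lower (1.05% to 3.26% and 1.14% to 3.12%), 13 to 17 in *Irf2bp2* KD (8.95% to 11.5% and 10.9% to 12.5%), 0 to 9 in the *Gfi1b* table (0% to 14.6% and 0% to 12%), 2 to 7 in MEL induction, with 0 to 3 higher and 2 to 4 lower (5.94% to 11.8% and 6.52% to 16.1%), and 17 to 19 in *Kdm1a* KD, with 16 to 18 higher and 1 lower (10.2% to 11.7% and 8.91% to 9.4%). For the differences between knockdowns it gave 7 to 11, all higher (*Cbfa2t3* minus *Irf2bp2*, 8.08% to 9% and 6.71% to 9.22%), and 22 to 24, with 1 or 2 lower (*Kdm1a* minus *Cbfa2t3*, 12.7% to 14% and 11.2% to 11.6%). Against the 5 controls and against the 4 controls of the other tables, respectively, 6 of the log2 fold changes called higher in *Kdm1a* KD turned negative: *Oas1b* (-0.33 and -0.51), *Oas2* (-0.87 and -1.12), *Oas3* (-0.92 and -1.13), *Usp18* (-0.15 and -0.31), *Irf7* (-0.98 and -1.24) and *Xaf1* (-0.39 and -0.59). The construction of these alternatives, a change of control libraries, sets the difference. With the replicate number as a block, the counts were 4 lower in *Cbfa2t3* KD (2.67% and 2.37%), 1 higher and 14 lower (15 in all) in *Irf2bp2* KD (10.2% and 12.7%), 0 in the *Gfi1b* table (0% and 0%) and 4 higher and 3 lower (7 in all) in MEL induction (15.2% and 18.2%). The correlations of same-numbered libraries' deviations were 0.24, 0.03, 0.00 and 0.20, over 2 numbers each, which does not establish a pairing. No paired analysis was run for *Kdm1a* KD, whose control shares 1 number with the KD libraries. A listed site was found within 100 kb for 29 of the 39 genes (18 within 20 kb and 13 within 5 kb). Among the 31 tested, the shares at 5, 20 and 100 kb were 41.9%, 58.1% and 87.1%, against 30.5%, 48.8% and 81.3% of all genes. Over all 39, of which 8 are not in that background, they were 33.3%, 46.2% and 74.4%, so that the order against all genes at 20 and 100 kb depends on which genes are counted. Of the recomputed counts, 87 stayed within 1.5 times the main count and 15 did not. Where no construction shows it, the cause was not tested. Counts were few for the genes under 1 CPM, and errors were wider in the *Gfi1b* and MEL tables (median SE 0.38 and 0.34, against 0.12 to 0.14 in the KD comparisons by shRNA).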

Other observations

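*Tmem173*, at or below 0.159 CPM in the *Cbfa2t3* and *Irf2bp2* tables, was at 0.408 and 0.806 CPM in the *Gfi1b* controls and at 6.47 and 11.3 CPM in the 2 libraries labelled Gfi1b KD, as well as at 7.96 and 7.68 CPM in *Kdm1a* KD. In the *Gfi1b* table its log2 fold change was 3.88 (SE 0.64) with an unadjusted p of 0.000504 and an edgeR adjusted p of 0.564, so that it was not called. The gene was singled out after its values were seen. Both libraries were above both controls, although the library labelled replicate 1 carries more *Gfi1b* than the controls.

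*Ifi47* was lower than the controls in *Irf2bp2* KD (34.2 and 34.6 CPM and then 15.7 and 15.0 CPM), in *Kdm1a* KD (42.8 CPM and then 17.8 and 23.1 CPM) and in MEL induction (38.5 and 35.5 CPM and then 5.89 and 4.83 CPM). It was singled out after its values were seen, was called in all 3 comparisons, and in *Kdm1a* KD also against the 5 controls (log2 fold change -0.93, edgeR adjusted p = 0.000264).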
